A study of Mus musculus with 24 samples.

Results

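The genes described here are 9 that cytokine signalling through STAT5 is known to control or that feed back on it: the inhibitors Socs1, Socs2, Socs3 and Cish, the kinases Pim1, Pim2 and Pim3, the cytokine gene Osm and the transcriptional regulator gene Id1. They were taken by gene name from a table of 38215 genes, and all 9 were among the 15879 that passed the filter on low counts. They were measured by sequencing of polyadenylated RNA in long-term haematopoietic stem cells (LT-HSCs), sorted as Lineage- Sca1+ cKit+ CD150+ CD48- cells from the bone marrow of 12 chimeric mice. Each mouse was a Ptprc a/b C57BL/6J recipient, irradiated with 11 Gy and given 2000000 marrow cells, mixed in equal parts from a Jak2fl-V617F/+ Tg(E2A-cre) donor and a congenic Jak2+/+ donor. The wild-type cells were sorted as CD45.1 and the Jak2V617F cells as CD45.2, so each mouse gave a library of both genotypes. Weekly injections of 600 ng of pegylated interferon alpha (pegIFN), or of vehicle (PBS with BSA), were given 5 times over 4 weeks, and marrow was collected 48 hours after the final one. There were 6 libraries in each of 4 groups: wild-type vehicle, wild-type pegIFN, Jak2V617F vehicle and Jak2V617F pegIFN. All groups therefore share the irradiated, transplanted host, and Jak2V617F cells shared each marrow with wild-type cells.

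Jak2 is the kinase bound to receptors for erythropoietin and related cytokines, and V617F is the activating mutation found in most patients with polycythaemia vera. Active Jak2 phosphorylates STAT5, which enters the nucleus and switches on Cish, the SOCS genes, the PIM kinases and Osm. SOCS and CISH proteins then bind receptors or Janus kinases and damp the signal. Socs1 and Socs3 also answer other signals: Socs1 restrains interferon receptors and is itself induced by interferons, and Socs3 restrains receptors that contain gp130 and is induced through STAT3. PIM kinases promote survival and growth and are active as made, so they are controlled largely through their amount. Id1 blocks the DNA binding of basic helix-loop-helix factors and is a target of BMP and SMAD signalling as well as of STAT5.

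A DNA sequence near the start of 3 of the genes bears on these inputs. STAT dimers bind TTCNNNGAA, and interferon-response elements are built from repeats of GAAA separated by a pair of bases. RefSeq start sites (GRCm38.p6) with the 250 bases before and 50 after them were found for 6 of the 9 genes, Socs1, Socs3, Cish, Pim1, Pim2 and Pim3, and both motifs were searched on both strands. The Socs1 sequence (chr16:10785537-10785786, minus strand, read 5′ to 3′ towards the start) is shown for its interferon-type motif, the Socs3 sequence (chr11:117969367-117969616, minus strand) for its STAT motif, and the Cish stretch (chr9:107296654-107296683, plus strand) for a pair of STAT motifs. Capitals mark the motif.
Socs1: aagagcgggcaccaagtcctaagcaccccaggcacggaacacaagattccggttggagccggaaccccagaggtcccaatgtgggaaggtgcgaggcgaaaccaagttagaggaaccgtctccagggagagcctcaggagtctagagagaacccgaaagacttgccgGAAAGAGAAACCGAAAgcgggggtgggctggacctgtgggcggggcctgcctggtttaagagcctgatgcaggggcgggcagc
Socs3: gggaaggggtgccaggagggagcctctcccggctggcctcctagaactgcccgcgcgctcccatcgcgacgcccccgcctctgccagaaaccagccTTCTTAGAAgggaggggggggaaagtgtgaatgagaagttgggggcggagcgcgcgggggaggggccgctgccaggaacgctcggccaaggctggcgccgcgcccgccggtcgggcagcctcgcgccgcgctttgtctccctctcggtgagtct
Cish: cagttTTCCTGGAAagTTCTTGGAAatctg
Socs1 had 2 overlapping interferon-type matches, beginning 83 and 77 bases before the start, and no TTCNNNGAA. Socs3 had 1 TTCNNNGAA, beginning 154 bases before the RefSeq start, and no interferon-type match. The Socs3 window lies inside the gene as counted here, which on the minus strand begins at 117970047. The 2 TTCNNNGAA of Cish lay after its RefSeq start, from bases 1 and 12 of that transcript. Cish as counted here begins earlier, at 107296026, so these positions hold for the RefSeq starts only. Neither motif was found in the windows of Pim1 (2 start sites), Pim2 or Pim3. TTCNNNGAA occurs in 8.30% of all 32851 such windows and in 7.02% of the 250 bases before a start, and the interferon-type motif in 3.44% and 2.98%. These matches describe the sequence and do not show binding.

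Values below are in CPM, the read counts of a gene scaled to the effective size of its library, given as the lowest, median and highest of the 6 libraries of a group. Changes are log2 fold changes ± SE from edgeR's quasi-likelihood test, and a gene is called where its adjusted p (Benjamini-Hochberg over all 15879 genes) is under 0.05. Totals ran from 24.6 to 39.7 M counts per library, and the least covered member, Id1, had 24 to 201 counts per library. Each pair of libraries of a mouse comes from 1 marrow, so the genotype comparisons were also fitted with the mouse as a block. A pair of libraries stood apart on sex-linked genes. Xist, made from the inactive X chromosome, was at 599.8 CPM in replicate 4 of wild-type vehicle where the other wild-type libraries had 1801 to 3310. Jak2V617F pegIFN replicate 1 had 653.9 where the other Jak2V617F libraries had 3.00 to 110.1. Sex-linked RNA also differed with treatment. Summed Y-linked RNA ran from 20.2 to 249.6 CPM (replicate 4) in wild-type vehicle and 2.17 to 22.7 in wild-type pegIFN. Jak2V617F cells had 189.9 to 242.7 under vehicle and 149.3 to 216.2 under pegIFN. Xist ran from 3.00 to 54.9 in Jak2V617F vehicle and 40.8 to 653.9 in Jak2V617F pegIFN. Its wild-type pegIFN range, 1801 to 2630, lay inside that of vehicle only with replicate 4. The other wild-type vehicle libraries had 1937 to 3310. Beyond fits without that pair, the part of these shifts in the members' changes was not tested. Markers of LT-HSCs were present in all groups, with a summed level of 876.7 to 2386 CPM over 10 genes. Ly6a, Kit and Slamf1, which encode the sorted antigens Sca1, cKit and CD150, are among them. The sum is therefore no independent check of what the cells were. In bulk RNA, fewer cells of a type and less RNA per cell cannot be told apart.

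Under pegIFN the members moved in both directions. In wild-type cells Socs1 and Osm rose, Socs3, Pim1 and Pim2 fell, and Socs2, Cish, Pim3 and Id1 were not called. In Jak2V617F cells Socs1 and Osm rose, Socs3 and Pim1 fell, and 5 members were not called. These counts stand in a broad response. In wild-type cells 28.2% of all genes tested were called higher and 28.7% lower, against 2 and 3 of 9 members, and in Jak2V617F cells 21.7% and 22.3%, against 2 and 2. The median log2 change of the members was -0.17 in wild-type and -0.11 in Jak2V617F cells, where that of all genes was -0.01 in both. The comparisons share libraries: each vehicle and each pegIFN group enters a pegIFN comparison and a genotype comparison. Groups did not overlap for 1 of 9 members in wild-type (30% of all genes) and 0 of 9 in Jak2V617F cells (18.4%).

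**Figure D1:**
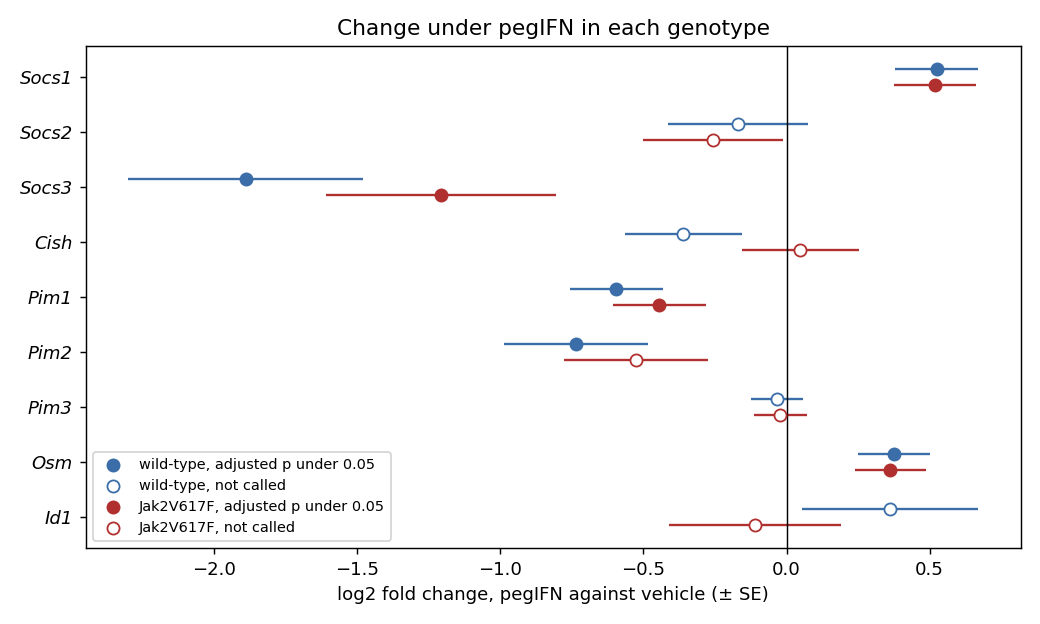
Log2 fold change of each member, pegIFN against vehicle, with its SE, in wild-type (blue) and Jak2V617F cells (red); 6 libraries per group, filled points have an adjusted p under 0.05. Socs1 and Osm lie to the right of 0 in both genotypes and Socs3 and Pim1 to the left, and Socs3 has the largest change (-1.89 and -1.21).

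Among the feedback inhibitors, Socs3 (ENSMUSG00000053113, chromosome 11, 117966079 to 117970047, minus strand, GRCm38) fell most. In wild-type cells it was at 21.7, 36.6 and 60.4 CPM under vehicle and at 4.36, 11.3 and 18.8 under pegIFN. Every wild-type pegIFN library lay below every vehicle library, and the change was -1.89 ± 0.41 (3.71-fold lower, adjusted p = 0.00053). In Jak2V617F cells it was at 17.2, 32.8 and 57.99 CPM under vehicle and 5.80, 15.5 and 25.98 under pegIFN, so the groups overlapped, and the change was -1.21 ± 0.40 (2.31-fold lower, adjusted p = 0.019). The Jak2V617F call was lost without Jak2V617F vehicle replicate 5, its highest vehicle library (-1.02, adjusted p = 0.051). Leaving out any 1 library gave -2.10 to -1.71 in wild-type and -1.40 to -1.02 in Jak2V617F cells.

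Socs1 (ENSMUSG00000038037, chromosome 16, 10783808 to 10785536, minus strand) rose by a similar amount in both genotypes. In wild-type cells it was at 6.99, 9.71 and 12.2 CPM under vehicle and 10.7, 14.6 and 15.7 under pegIFN. In Jak2V617F cells it was at 8.12, 10.5 and 13.1 CPM under vehicle and 12.1, 15.4 and 17.7 under pegIFN. The ranges overlapped in each genotype, by 1 pegIFN library in wild-type cells. The change was 0.52 ± 0.14 in wild-type (1.44-fold, adjusted p = 0.0032) and 0.52 ± 0.14 in Jak2V617F cells (1.43-fold, adjusted p = 0.0051). Both calls were lost when 1 surrogate variable was added to the model (0.29, adjusted p = 0.142, and 0.34, adjusted p = 0.085).

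Cish and Socs2, the SOCS family members most closely tied to STAT5, were not called under pegIFN. Cish (ENSMUSG00000032578, chromosome 9, 107296026 to 107302784, plus strand) was at 27.6, 38.9 and 58.4 CPM in wild-type vehicle and 18.5, 30.5 and 48.6 in wild-type pegIFN. The difference of -0.36 ± 0.20 was within the spread between libraries (adjusted p = 0.136), and it was called without wild-type pegIFN replicate 6 (-0.52, adjusted p = 0.028). In Jak2V617F cells Cish was at 25.9, 29.8 and 41.3 CPM under vehicle and 19.8, 33.6 and 39.6 under pegIFN (0.05 ± 0.20, adjusted p = 0.869). The antisense gene Gm17041 and the pseudogene Gm17040, both on the opposite strand, overlap Cish at a mean of 60.1 and 2.77 counts, and as the strand of counting is not stated their reads cannot be told apart from those of Cish. Socs2 (ENSMUSG00000020027, chromosome 10, 95385362 to 95417180, minus strand) was at 19.6, 29.7 and 39.7 CPM in wild-type vehicle and 16.1, 23.1 and 48.4 in wild-type pegIFN (-0.17 ± 0.25, adjusted p = 0.576). The Jak2V617F libraries were at 21.4, 38.7 and 46.4 CPM under vehicle and 23.2, 29.1 and 41.8 under pegIFN (-0.26 ± 0.24, adjusted p = 0.420). The 95% intervals of the Socs2 difference ran from -0.65 to 0.31 in wild-type and from -0.74 to 0.22 in Jak2V617F cells. These intervals hold changes as large as those called for Pim1 (-0.59 in wild-type and -0.44 in Jak2V617F cells).

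The SOCS genes outside the 9 are not classical STAT5 targets. Of Socs4, Socs5, Socs6 and Socs7, 2 fell and none rose in wild-type cells (median -0.13) and 1 fell in Jak2V617F cells (median -0.08). Among all genes, 28.7% were called lower in wild-type and 22.3% in Jak2V617F cells. Socs5 fell by 0.38 ± 0.08 in wild-type (adjusted p = 0.00021) and by 0.25 ± 0.08 in Jak2V617F cells (adjusted p = 0.011), and Socs6 fell by 0.17 ± 0.06 in wild-type cells (adjusted p = 0.0299).

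Of the PIM kinases, Pim1 passed the test in both genotypes under pegIFN, Pim2 in wild-type cells and Pim3 in neither. Pim1 (ENSMUSG00000024014, chromosome 17, 29490812 to 29495445, plus strand) was at 205 (lowest), 285 and 377 CPM in wild-type vehicle and 151, 195 and 228 in wild-type pegIFN. It fell by 0.59 ± 0.16 (1.51-fold, adjusted p = 0.0036), with 2 vehicle libraries inside the pegIFN range. In Jak2V617F cells it was at 191, 282 and 372 CPM under vehicle and 155, 205 and 246 under pegIFN, and fell by 0.44 ± 0.16 (1.36-fold, adjusted p = 0.031). The Jak2V617F call was lost with no filter (-0.43, adjusted p = 0.064) and with 1 surrogate variable (-0.42, adjusted p = 0.1199). It was also lost without Jak2V617F vehicle replicate 4 (-0.38, adjusted p = 0.079) or 5 (-0.34, adjusted p = 0.095), without Jak2V617F pegIFN replicate 1 (-0.37, adjusted p = 0.079), 4 (-0.44, adjusted p = 0.052) or 6 (-0.44, adjusted p = 0.0501), and without both libraries that stand apart (-0.37, adjusted p = 0.067). A lincRNA on the opposite strand, AC163629.2, overlaps Pim1 at a mean of 311 counts against 4707 or more for Pim1, and reads of the pair cannot be told apart. Its own changes were -0.36 (adjusted p = 0.086) in wild-type and -0.35 (adjusted p = 0.122) in Jak2V617F cells.

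Pim2 (ENSMUSG00000031155, chromosome X, 7878262 to 7883432, plus strand) was at 32.6, 48.9 and 80.7 CPM in wild-type vehicle and 18.8, 36.0 and 42.04 in wild-type pegIFN. It fell by 0.74 ± 0.25 (1.67-fold, adjusted p = 0.017), and the call was lost without wild-type vehicle replicate 5 (-0.57, adjusted p = 0.061). The Jak2V617F libraries were at 33.7, 51.3 and 102.7 CPM under vehicle and 26.8, 37.7 and 55.4 under pegIFN. That difference of -0.53 ± 0.25 was not called (adjusted p = 0.095), but it was without Jak2V617F vehicle replicate 2 (-0.64, adjusted p = 0.046). Without the high library, Jak2V617F vehicle replicate 5, it was at -0.27 (adjusted p = 0.353).

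Pim3 (ENSMUSG00000035828, chromosome 15, 88862186 to 88865718, plus strand) was the steadiest of the 9. Its medians were 45.1 CPM in wild-type vehicle, 43.3 in wild-type pegIFN, 45.7 in Jak2V617F vehicle and 42.2 in Jak2V617F pegIFN, and all 24 libraries lay between 37.96 and 55.995. The pegIFN difference was -0.03 ± 0.09 in wild-type (95% interval -0.21 to 0.15) and -0.02 ± 0.09 in Jak2V617F cells (95% interval -0.20 to 0.16). These intervals hold no change as large as those called for Pim1.

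Osm (ENSMUSG00000058755, chromosome 11, 4236420 to 4241026, plus strand), which encodes a cytokine of the interleukin-6 family and is a direct STAT5 target in blood cells, rose in both genotypes. It was at 11.9, 13.4 and 14.6 CPM in wild-type vehicle and 13.7, 16.7 and 21.2 in wild-type pegIFN, a change of 0.38 ± 0.12 (1.297-fold, adjusted p = 0.012). The Jak2V617F libraries were at 11.6, 13.95 and 16.5 CPM under vehicle and 14.7, 17.1 and 23.2 under pegIFN, a change of 0.36 ± 0.12 (1.29-fold, adjusted p = 0.020). Groups overlapped in both. Both calls were lost with upper-quartile scaling (0.29, adjusted p = 0.052, and 0.30, adjusted p = 0.055) and with 1 surrogate variable (0.29, adjusted p = 0.145, and 0.29, adjusted p = 0.129). The Jak2V617F call was also lost without Jak2V617F vehicle replicate 5 (0.32, adjusted p = 0.057) or pegIFN replicate 5 (0.28, adjusted p = 0.078). Il6st, the gp130 chain that the receptor of this cytokine uses, fell by 0.81 ± 0.11 in wild-type (adjusted p = 2.4e-06) and by 0.72 ± 0.11 in Jak2V617F cells (adjusted p = 2.9e-05).

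Id1 (ENSMUSG00000042745, chromosome 2, 152736251 to 152737410, plus strand) was not called under pegIFN. It was at 0.855, 1.78 and 3.42 CPM in wild-type vehicle and 1.55, 2.37 and 4.42 in wild-type pegIFN (0.36 ± 0.31, adjusted p = 0.325). In Jak2V617F cells it was at 2.30, 3.54 and 6.18 CPM under vehicle and 2.56, 3.35 and 4.77 under pegIFN (-0.11 ± 0.30, adjusted p = 0.797). Of its relatives, Id3 fell by 1.75 ± 0.53 in wild-type (adjusted p = 0.0066) and by 1.90 ± 0.51 in Jak2V617F cells (adjusted p = 0.0043), and Id2 fell by 0.73 ± 0.23 in wild-type cells (adjusted p = 0.0081). The difference between Id1 and its relatives was not tested. BMP and SMAD signalling is the pathway best known for driving Id genes. The 5 tested genes listed beside it were Smad6, Smad7, Bambi, Skil and Hes1, which are not all feedback genes of that pathway. All 5 fell in both genotypes, with medians of -1.201 and -0.82. Of all genes, 28.7% in wild-type and 22.3% in Jak2V617F cells were called lower. Bambi, a decoy receptor, fell by 1.49 ± 0.18 (adjusted p = 2.5e-07) and Smad6, an inhibitory SMAD, fell by 1.201 ± 0.17 (adjusted p = 2.2e-06) in wild-type cells. In Jak2V617F cells Smad7, another inhibitory SMAD, fell by 0.71 ± 0.16 (adjusted p = 0.0010).

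**Figure D2:**
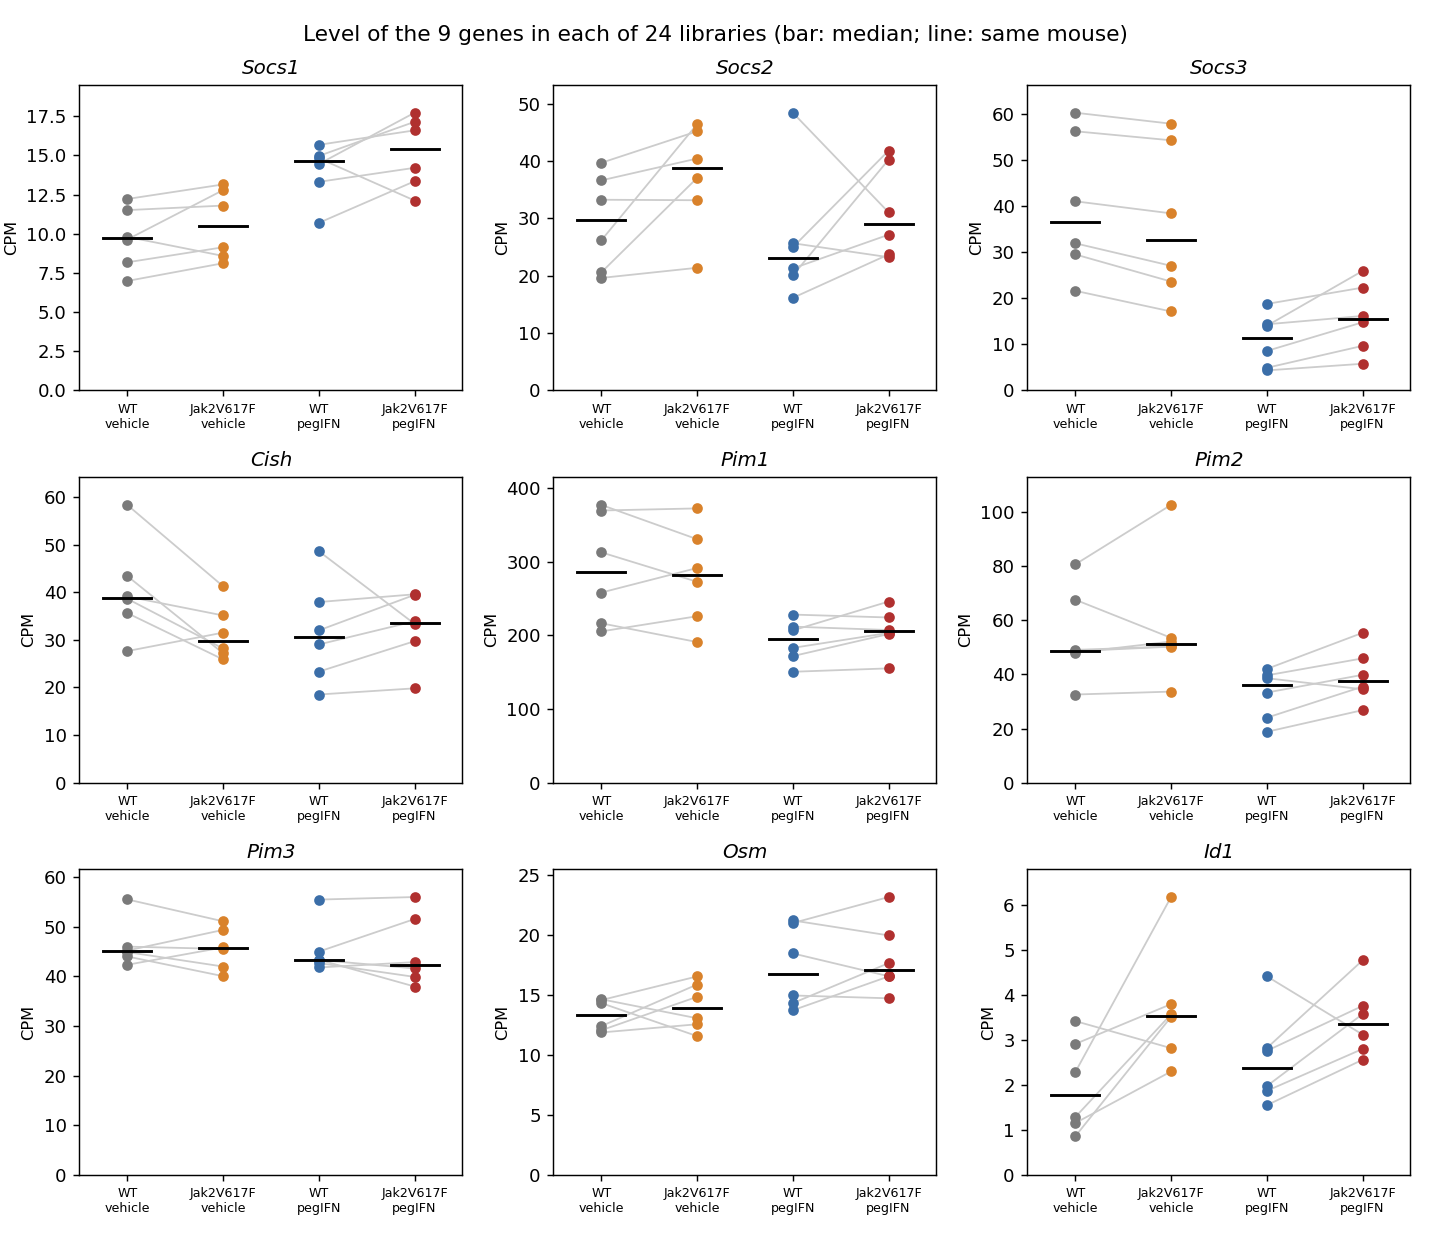
CPM of each member in the 24 libraries, in 4 groups of 6; points are libraries, bars are medians and grey lines join the libraries of a mouse. Socs3 is lower in both pegIFN groups, with medians of 11.3 and 15.5 CPM against 36.6 and 32.8, its lines fall from wild-type to Jak2V617F under vehicle and climb under pegIFN, and Pim3 stays between 37.96 and 55.995 CPM.

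Levels of different genes were compared per kilobase of exon, with the exons of all annotated transcripts of a gene merged. That length was 9531 bases for Socs2 (14 transcripts) and 6419 for Cish (5 transcripts), against 2272 for Osm and 2891 for Socs3. The ranks therefore depend on the annotation, in which Socs1, Pim1 and Pim3 also have other ends than in the table of counts. Pim1 was the highest member in every group, at 86.2 ± 22.3 CPM per kb (SD, n = 6) in wild-type vehicle, 57.1 ± 8.55 in wild-type pegIFN, 83.5 ± 19.8 in Jak2V617F vehicle and 61.4 ± 8.96 in Jak2V617F pegIFN. Id1 was the lowest in every group, from 1.71 ± 0.90 in wild-type vehicle to 3.19 ± 1.15 in Jak2V617F vehicle. Next to Pim1 came Pim2 (19.5 ± 6.08) and Pim3 (19.1 ± 1.93) in wild-type vehicle, which did not differ beyond their spread, and then Socs3 (13.9 ± 5.34). Cish (6.31 ± 1.59) and Osm (5.86 ± 0.59) followed, and Socs1 (3.34 ± 0.68) and Socs2 (3.08 ± 0.89) came before Id1, again with neighbours inside each other's spread. By mean Socs3 ranked 4 of 9 in wild-type vehicle and 7 of 9 in wild-type pegIFN, at 3.75 ± 2.01 CPM per kb, below Osm (7.61 ± 1.49), Cish (4.92 ± 1.67) and Socs1 (4.81 ± 0.62). In Jak2V617F pegIFN it ranked 5, at 5.47 ± 2.61.

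The genotype comparison asks how far the mutant kinase shifts these genes in cells that share a marrow. Sex-linked RNA differed with the genotype: Xist ran from 599.8 to 3310 CPM in wild-type and from 3.00 to 653.9 in Jak2V617F libraries. The sex of the donor and the mutation therefore cannot be told apart for any of the 9 members. With the 4 group means alone, edgeR called 0 of 9 members under vehicle, 0 under pegIFN and 0 in the interaction, the difference between the genotypes in their response. At an unadjusted p under 0.05 the count was 1 under vehicle (Id1) and 0 in the other 2 comparisons, and DESeq2 called 1 under vehicle. Of all genes 8.48% were higher and 4.23% lower in Jak2V617F cells under vehicle, 4.16% and 4.43% under pegIFN, and 0% and 0% in the interaction, where 571 genes were higher and 767 lower at an unadjusted p under 0.05. The genotype groups overlapped for all 9 members in both treatments, where 2.91% of all genes did not overlap under vehicle and 3.46% under pegIFN. With the mouse as a block, 1 member was higher and 1 lower under vehicle (17.5% and 13.6% of all genes), 2 higher and 0 lower under pegIFN (13.3% and 11.3%), and 1 higher in the interaction (1.28%, with 2.05% lower).

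**Figure D3:**
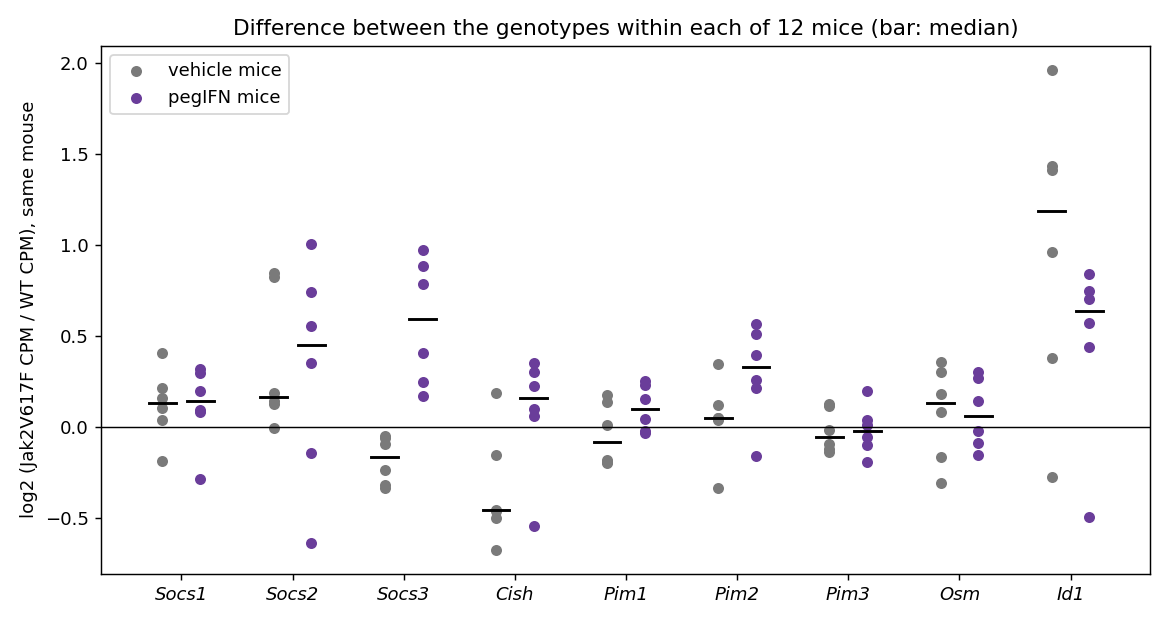
Log2 ratio of the Jak2V617F to the wild-type CPM within each mouse, for 6 vehicle mice (grey) and 6 pegIFN mice (purple); bars are medians. All vehicle points of Socs3 lie below 0 (median -0.17) and all its pegIFN points above (median 0.60), and Id1 lies above 0 in 5 of 6 mice of each treatment.

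Socs3 was below its wild-type partner in 6 of 6 vehicle mice and above it in 6 of 6 pegIFN mice. Under vehicle the wild-type and Jak2V617F libraries were at 29.6 and 23.7 CPM in mouse 1, 32.0 and 27.1 in mouse 2, 56.3 and 54.4 in mouse 3, 41.1 and 38.5 in mouse 4, 60.4 and 57.99 in mouse 5, and 21.7 and 17.2 in mouse 6. The Jak2V617F library was lower each time, at a log2 ratio of -0.33 to -0.05. The 6 mice stood in the same order in both genotypes, which held for 1.36% of all genes. This order was looked at for every member in both treatments. Under pegIFN the pairs were at 4.36 and 5.80 CPM in mouse 1, 18.8 and 22.4 in mouse 2, 8.59 and 14.8 in mouse 3, 4.92 and 9.69 in mouse 4, 14.1 and 25.98 in mouse 5, and 14.4 and 16.2 in mouse 6. Here the Jak2V617F library was higher each time, by 0.17 to 0.97, and 3 of 6 mice held the same rank in both genotypes. Of all genes, 13.3% were below the partner in all 6 vehicle mice, 12.8% were above it in all 6 pegIFN mice, and 0.132% did both. These shares were counted for the pattern that Socs3 showed, so they are no test of it.

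In the blocked fit Socs3 was higher in Jak2V617F than in wild-type cells under pegIFN by 0.57 ± 0.09 (adjusted p = 0.00051), where the fit without the block gave 0.55 ± 0.41 (adjusted p = 0.443). The interaction was 0.75 ± 0.13 (adjusted p = 0.0085) against 0.68 ± 0.56 (adjusted p = 0.751) without the block. Under vehicle the blocked difference of -0.18 ± 0.09 was not called (adjusted p = 0.127). Leaving out each of the 12 mice in turn kept both calls, with 0.49 to 0.65 under pegIFN and 0.67 to 0.85 for the interaction. Both depend on the form of the block: limma-voom, where mice enter as a random effect at a correlation of 0.42 common to all genes, gave 0.60 ± 0.30 (adjusted p = 0.148) and 0.78 ± 0.36 (adjusted p = 0.235).

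Markers of other cells moved with the genotype, and their part in the genotype differences of Socs3 and the other members was not tested. The summed CPM of 11 granulocyte and monocyte markers was higher in the Jak2V617F library of 6 of 6 vehicle mice (median log2 ratio 0.72) and 6 of 6 pegIFN mice (1.495). It ran from 295.7 to 1011 CPM in wild-type vehicle, 362.9 to 2119 in Jak2V617F vehicle, 159.8 to 699 in wild-type pegIFN and 758.7 to 1406 in Jak2V617F pegIFN. Ly6g, a neutrophil marker, had medians of only 0.06 to 0.33 CPM, so the sum rests on other genes of the list. Which cells it came from was not tested. Of the 11, 2 were called higher in Jak2V617F cells under pegIFN (Elane by 1.96 and Mpo by 1.68) and none under vehicle. The summed LT-HSC markers were below the wild-type partner in 6 of 6 vehicle and 5 of 6 pegIFN mice (median log2 ratios -0.44 and -0.24). The erythroid sum was below it in 5 of 6 and 6 of 6 (-0.27 and -0.54). The megakaryocyte sum was above the partner in 5 of 6 mice of each treatment (0.54 and 0.25), and the T and NK cell sum in 5 of 6 and 6 of 6 (0.33 and 0.33). The B cell sum was above it in 1 of 6 vehicle and 4 of 6 pegIFN mice, the mast cell and basophil sum in 3 of 6 of each, and the endothelial and stromal sum in 1 of 6 and 3 of 6.

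Id1 was the member furthest apart between the genotypes under vehicle. It was at 0.855, 1.78 and 3.42 CPM in wild-type and 2.30, 3.54 and 6.18 in Jak2V617F libraries, higher in the mutant library of 5 of 6 mice, and also of 5 of 6 under pegIFN. The vehicle difference was 0.89 ± 0.31 without the block (1.86-fold, adjusted p = 0.054). With the block it was 0.97 ± 0.25 (adjusted p = 0.0069), and it was called in each of the 12 fits without 1 mouse (0.79 to 1.24). DESeq2 (0.88, adjusted p = 0.028) and the random block (0.99, adjusted p = 0.0032) also called it, and it was at 0.78 (adjusted p = 0.138) without the block and both libraries that stand apart. Under pegIFN the blocked difference was 0.47 ± 0.24 (adjusted p = 0.170), and the interaction was -0.50 ± 0.35 (adjusted p = 0.453). With 24 to 107 counts per wild-type vehicle library, this is the difference with the fewest reads behind it.

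Cish was lower in the Jak2V617F library of 5 of 6 vehicle mice and higher in 5 of 6 pegIFN mice. Under vehicle the ratio ran from -0.67 to 0.19, with a median of -0.46, and the blocked difference was -0.35 ± 0.11 (adjusted p = 0.033). Without the block it was -0.36 ± 0.20 (adjusted p = 0.244), and with the random block -0.34 ± 0.14 (adjusted p = 0.062). It was called in 8 of 12 fits without 1 mouse, and lost without vehicle mouse 1, 4, 5 or 6 (adjusted p up to 0.103). The interaction of 0.42 ± 0.16 was not called (adjusted p = 0.163), except without pegIFN mouse 6 (0.57, adjusted p = 0.016).

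Pim2 was higher in the Jak2V617F library of 5 of 6 pegIFN mice, and the blocked difference was 0.30 ± 0.09 (adjusted p = 0.020), against 0.28 ± 0.25 (adjusted p = 0.546) without the block and 0.31 ± 0.17 (adjusted p = 0.185) with the random block. It was called in 9 of 12 fits without 1 mouse and lost without pegIFN mouse 1, 3 or 5 (adjusted p up to 0.085). Under vehicle the blocked Pim2 difference was 0.04 ± 0.08 (adjusted p = 0.730). Pim2 is the member on the X chromosome, and Xist was at 1801 to 2630 CPM in wild-type and 40.8 to 653.9 in Jak2V617F pegIFN libraries. In vehicle libraries Xist was at 599.8 to 3310 CPM in wild-type and 3.00 to 54.9 in Jak2V617F cells. The part of sex-linked differences in the Pim2 values was not tested.

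The other 5 members were not called between the genotypes in either fit. Socs2 was higher in the Jak2V617F library of 5 of 6 vehicle and 4 of 6 pegIFN mice, with blocked differences of 0.35 ± 0.20 (adjusted p = 0.203) and 0.31 ± 0.20 (adjusted p = 0.303). It was called under pegIFN only without pegIFN mouse 6 (0.50, adjusted p = 0.044), whose wild-type library had the 48.4 CPM. Socs1 was higher in 5 of 6 mice of each treatment, by a blocked 0.12 ± 0.09 in each (adjusted p = 0.321 and 0.366). Pim1 was at -0.04 ± 0.05 under vehicle (adjusted p = 0.614) and 0.10 ± 0.06 under pegIFN (adjusted p = 0.188). Osm was at 0.08 ± 0.09 (adjusted p = 0.560) and 0.07 ± 0.09 (adjusted p = 0.593), and Pim3 at -0.02 ± 0.05 in both (adjusted p = 0.805 and 0.863).

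The upstream genes of the pathway were compared between the genotypes as well. Of 11 JAK and STAT genes, 3 were lower in Jak2V617F cells under vehicle and 4 under pegIFN without the block, and 8 and 7 with it. Of all genes, 4.23% and 4.43% were lower without the block, and 13.6% and 11.3% with it. None of the 11 was called higher, and the others were not called. Stat5a was at a blocked -0.14 ± 0.05 under vehicle (adjusted p = 0.038) and -0.31 ± 0.05 under pegIFN (adjusted p = 0.00043). Stat5b was at -0.14 ± 0.04 (adjusted p = 0.020) and -0.35 ± 0.04 (adjusted p = 5.1e-05), and Jak2 itself at -0.22 ± 0.05 (adjusted p = 0.0028) and -0.30 ± 0.05 (adjusted p = 0.00035). Counts per gene do not show the mutation.

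Under pegIFN the JAK and STAT genes split. Counts of this list and of those below stand beside the shares of all genes. In wild-type cells 28.2% of all genes were called higher and 28.7% lower, and in Jak2V617F cells 21.7% and 22.3%. In wild-type cells 4 of 11 rose and 4 fell (median 0.14), and in Jak2V617F cells 2 rose and 3 fell (median -0.02). Stat2 rose by 1.77 ± 0.12 (adjusted p = 1.4e-11) in wild-type cells, while Stat3, the main driver of Socs3 downstream of gp130, fell by 0.50 ± 0.08 (adjusted p = 7.9e-06). Stat3 fell in Jak2V617F cells too, by 0.41 ± 0.08 (adjusted p = 0.00018). Stat5a (0.15 ± 0.07, adjusted p = 0.094) and Stat5b (0.14 ± 0.06, adjusted p = 0.065) were not called in wild-type cells.

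Of 12 receptors that use Jak2 or gp130, 6 fell and 1 rose in wild-type cells (median -0.27), and 5 fell and 1 rose in Jak2V617F cells (median -0.33). Epor, the erythropoietin receptor and a classical route to STAT5, rose by 1.29 ± 0.10 (adjusted p = 2.7e-10) and 0.88 ± 0.10 (adjusted p = 3.5e-07). Csf3r, the receptor of G-CSF, fell by 1.62 ± 0.27 (adjusted p = 4.0e-05) and by 0.67 ± 0.27 (adjusted p = 0.046), and its blocked interaction of 0.96 ± 0.15 was called (adjusted p = 0.0085). Of 4 interferon receptor chains, Ifnar1 fell by 0.42 ± 0.06 (adjusted p = 3.0e-06) and Ifngr1 rose by 1.08 ± 0.11 (adjusted p = 4.7e-08) in wild-type cells.

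Of 12 other negative regulators 4 rose and 6 fell in wild-type cells (median -0.08), and 3 rose and 4 fell in Jak2V617F cells (median -0.02). Usp18, which blocks the interferon receptor, rose by 4.49 ± 0.12 (adjusted p = 1.7e-19) and 4.54 ± 0.12 (adjusted p = 1.4e-19). The ubiquitin ligase Cbl fell by 0.53 ± 0.07 (adjusted p = 1.4e-06) and by 0.51 ± 0.07 (adjusted p = 6.8e-06). For scale, 8 of 10 listed interferon-response genes rose and 1 fell in both genotypes, with medians of 4.53 and 4.50. Irf1, the member that fell, encodes a transcription factor and was at -0.95 ± 0.18 (adjusted p = 8.7e-05) and -0.71 ± 0.18 (adjusted p = 0.0023).

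Of 14 tested genes outside the 9 that are described as STAT5 targets, 6 rose and 6 fell in wild-type cells and 6 rose and 4 fell in Jak2V617F cells, with medians of -0.21 in both. Cyclin D2 (Ccnd2) rose by 0.45 ± 0.07 (adjusted p = 7.5e-06) and Bcl2l1, which encodes the survival protein Bcl-xL, by 0.55 ± 0.11 in Jak2V617F cells (adjusted p = 0.00042). Mcl1, another survival gene, fell by 0.74 ± 0.10 in wild-type cells (adjusted p = 1.3e-06), and the receptor gene Tnfrsf13b fell by 0.80 ± 0.10 (adjusted p = 4.3e-07). Between the genotypes, with the block, 5 were higher and 3 lower in Jak2V617F cells under vehicle (17.5% and 13.6% of all genes). Under pegIFN 6 were higher and 4 lower (13.3% and 11.3%). Lrrc32 (1.71 ± 0.40, adjusted p = 0.0045), Gfi1 (0.73 ± 0.18, adjusted p = 0.0074) and Bcl2l1 (0.21 ± 0.05, adjusted p = 0.0029) were among those higher under vehicle, and Myc (-0.17 ± 0.05, adjusted p = 0.016) among those lower.

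**Figure D4:**
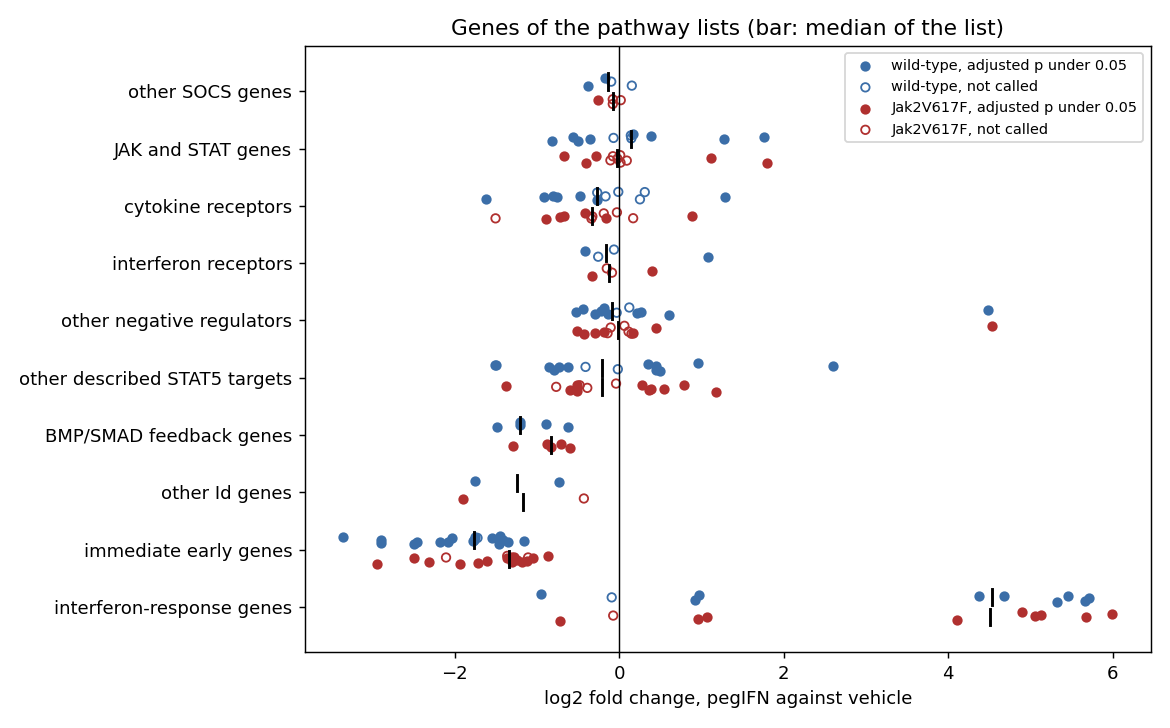
Log2 fold change, pegIFN against vehicle, of the tested genes of 10 lists in wild-type (blue) and Jak2V617F cells (red); filled points have an adjusted p under 0.05 and bars are list medians. Interferon-response genes lie far to the right (medians 4.53 and 4.50). Immediate early genes and the genes listed for BMP and SMAD signalling lie to the left, and the other described STAT5 targets on both sides of 0.

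Socs3 varied between libraries together with the immediate early genes, which are transcribed within minutes of a stimulus. By Pearson's r of log2 CPM with group means removed, the 3 genes most like Socs3 among 12257 compared over the 24 libraries were Klf6 (0.92), Klf4 (0.91) and Zfp36 (0.90), and all 3 are in the list of 18 immediate early genes. With the summed level of those 18 the r of Socs3 was 0.90, where that of the other members ran from -0.26 (Socs2) to 0.68 (Pim3). These are descriptions: libraries of a mouse share their marrow, and the labels do not say which libraries were sorted or sequenced together. The list itself fell under pegIFN, in 17 of 18 genes in wild-type (median -1.77) and 15 of 18 in Jak2V617F cells (median -1.33). Its sum ran from 3589 to 9038 CPM in wild-type vehicle, 944.9 to 3924 in wild-type pegIFN, 2879 to 9372 in Jak2V617F vehicle and 1020 to 3807 in Jak2V617F pegIFN. Ier3 (-1.36 ± 0.12, adjusted p = 2.9e-09) and Egr1 (-2.49 ± 0.41, adjusted p = 3.5e-05) were among those that fell in wild-type cells.

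Within mice the immediate early genes leaned the same way as Socs3. Their sum was higher in the Jak2V617F library of 2 of 6 vehicle mice (median log2 ratio -0.21) and of 5 of 6 pegIFN mice (0.29). With the block, 17.5% of all genes were higher and 13.6% lower under vehicle, 13.3% and 11.3% under pegIFN, and 1.28% and 2.05% in the interaction. Of the 18, 1 was higher and 5 lower in Jak2V617F cells under vehicle, and 6 were higher and none lower under pegIFN. In the interaction 4 of the 18 were higher. Those 4 were Rgs1 (0.67 ± 0.11, adjusted p = 0.0069), Zfp36 (0.61 ± 0.12, adjusted p = 0.017), Btg2 (0.76 ± 0.15, adjusted p = 0.019) and Egr1 (0.54 ± 0.13, adjusted p = 0.036). Their part in the Socs3 values was not tested.

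**Figure D5:**
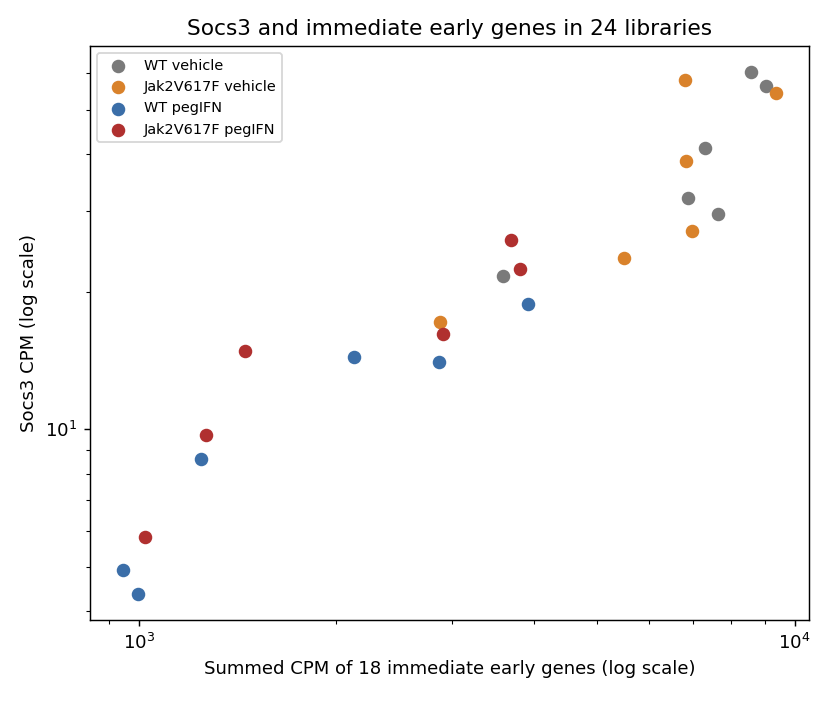
Socs3 CPM against the summed CPM of 18 immediate early genes in the 24 libraries, both on log scales, coloured by group. The pegIFN libraries lie at the lower left, with immediate early sums of 944.9 to 3924 CPM, and the vehicle libraries at the upper right, with 2879 to 9372 CPM.

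The other members had other companions. Pim2 was most like Pim1 (r = 0.82), and AC163629.2, the lincRNA across Pim1, was among the 3 genes most like both. Pim1 was most like Treml2 (0.85), a myeloid receptor gene, and Zc3h12a (0.84), an RNase that degrades inflammatory transcripts. Socs1 was most like Chmp4b (0.81), Myd88 (0.81), an adaptor of Toll-like receptors, and Serpina3f (0.80). Socs2 was most like Plxdc2 (0.87), Vegfc (0.82) and Erlec1 (0.80). Cish was most like Gm20683 (0.78), Podxl (0.78) and St3gal2 (0.76), and Pim3 like Usp36, Pgd and Nr1h2 (each 0.79). Osm was most like Fam53b (0.78), Mex3d (0.78) and Brd2 (0.77), and Id1 like Gm10430 (0.77), Coq7 (0.74) and Chchd10 (0.73).

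Markers of stem cells and of other lineages moved with pegIFN, and their part in the members' changes was not tested. Of 10 LT-HSC markers 8 fell and 1 rose in both genotypes, with medians of -1.09 and -0.90. The sum of the 6 measured erythroid markers ran from 117.9 to 544.2 CPM in wild-type vehicle and 83.0 to 143.2 in wild-type pegIFN, and from 109.8 to 301.6 CPM in Jak2V617F vehicle and 25.7 to 105.7 in Jak2V617F pegIFN. Granulocyte and monocyte markers fell in 2 of 11 genes in wild-type and none in Jak2V617F cells. Megakaryocyte markers rose in 1 of 6 and in none. Of the 3 tested B cell markers 3 fell in wild-type and 1 in Jak2V617F cells, and of the 3 tested T and NK markers 1 rose and 2 fell in each. The median T and NK sum of wild-type libraries was 51.6 CPM under vehicle and 86.4 under pegIFN. It ran from 61.3 to 80.2 CPM in Jak2V617F vehicle and from 90.7 to 143.0 in Jak2V617F pegIFN, without overlap. Cd3e, a T cell gene too low to be tested, had a median of at most 0.03 CPM in any group. The T and NK sum therefore rests on other genes of the list, and which cells it came from was not tested. Mast cell and basophil markers rose in 2 of 5 and fell in 1 in wild-type, and rose in 1 in Jak2V617F cells. Of 5 tested endothelial and stromal markers 4 fell in each genotype, with sums of 226.3 to 269.7 and 100.3 to 169.9 CPM in wild-type vehicle and pegIFN.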

How the data were processed

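RNA of sorted LT-HSCs was measured in 24 libraries. The deposited table holds expected counts per gene, made by the authors; the submitters' processing notes name RSEM 1.2.30, STAR 2.5.2a, cutadapt 1.11 and the build GRCm38; the annotation release and strand setting are not given in the sources used here. RSEM shares reads among genes, so 16.8% of values were not whole, and they were rounded. Genes were kept by filterByExpr (minimum count 10) and tested with edgeR 4.0.16 in R 4.3.3 (TMM factors, 4 group means, robust quasi-likelihood F tests, Benjamini-Hochberg adjustment over 15879 genes). Totals were 24.6 to 39.7 M counts; these limit precision for counting error only. Members, lists and tests were chosen with earlier results of these data known. Named genes were the 9 members, up to 4 called genes of each list with the smallest p per comparison, and the 3 genes most like each member; the same rule was applied to the blocked fit after its values were seen, and Il6st, Irf1, Stat5a, Stat5b, Socs5, Myc and the marker genes were also named for their roles. Levels per kilobase used exon lengths of GENCODE M21, and start-site sequences came from RefSeq.

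The mouse of a library was read from the number in its library name. Same-numbered libraries of both genotypes had correlations of 0.16 to 0.64, with a median of 0.47, in deviations from the group means, and 11 of 12 matched most with their own partner, so the numbers pair the libraries. The labels do not say how donors were shared among recipients, so p-values cannot be read as a spread between donors. Without a block they measure the spread between libraries of a group, with the libraries of a mouse taken as independent. With the fixed block they measure how far the genotype difference varied between mice. Library names also end in a sample number that recurs within each group. The labels do not assign libraries to sequencing sets, so no term for a set was fitted. Within groups, libraries differed beyond counting noise (chi-square over its degrees of freedom 6.77 to 66.9). Alternatives were upper-quartile and RLE factors, DESeq2 1.42.0, a floor of 1 CPM in 12 libraries or no filter, only the groups compared, the mouse as a fixed block (edgeR) or random block (limma 3.58.1), 1 surrogate variable (sva 3.50.0), and each library left out. Leaving out each mouse from the blocked fit was chosen after seeing the data. The scripts were tested on simulated data. Some list genes are not reported here.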

Additional observations from a re-analysis of the deposited data

Results flagged for a closer look

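The response of Socs3 to pegIFN differed between the genotypes in the fit with a fixed block: the interaction, with the mouse as a block in edgeR's quasi-likelihood test, was 0.75 ± 0.13 (adjusted p = 0.0085), and the Jak2V617F library was below its partner in 6 of 6 vehicle mice and above it in 6 of 6 pegIFN mice. It was not called without the block (0.68, adjusted p = 0.751), nor by limma-voom with a random block (0.78, adjusted p = 0.235).

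Single libraries lay far from the rest of their group in 4 of the 36 sets of 6 libraries (9 genes in 4 groups); chance flags about 1 in 20. Socs2 was at 48.4 CPM in wild-type pegIFN replicate 6, where the next library was at 25.7. Pim2 was at 102.7 CPM in Jak2V617F vehicle replicate 5, where the next was at 53.5. Pim3 was at 55.5 CPM in wild-type vehicle replicate 5, where the next was at 46.0, and at 55.5 CPM in wild-type pegIFN replicate 2, where the next was at 44.99.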

How the results depend on the processing

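Of the 45 member results, 16 changed sign under some alternative, none of them called, and no called member changed direction. The cause of each change was not tested.

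With 1 surrogate variable Cish in Jak2V617F pegIFN was at -0.13, Id1 in wild-type pegIFN at -0.043 (0.36 without it), and the interactions of Osm and Socs1 at 0.0056 and 0.044. It called 1077 genes higher between the genotypes under pegIFN, 1 lower in the interaction and 2282 higher in Jak2V617F pegIFN, with 0 members higher in either genotype, 1 lower in Jak2V617F pegIFN and 1 higher under vehicle. DESeq2 called 1145 genes lower under vehicle and 12 higher and 35 lower in the interaction. No filter gave Pim3 0.00049 in wild-type pegIFN and -0.0098 in the interaction, with 364 genes higher under pegIFN, 437 lower under vehicle and 1 member lower in Jak2V617F pegIFN. Fitting only the groups compared gave 717 higher and 435 lower under vehicle. Upper-quartile factors gave Cish -0.011 in Jak2V617F pegIFN and interactions of 0.010 (Osm) and 0.020 (Socs1), with 1 member higher in each pegIFN comparison; 1 CPM in 12 libraries gave a Socs1 interaction of 0.012. Scaling moved the median of all genes by at most 0.08.

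Without both libraries that stand apart, Pim1 under vehicle was at 0.044, Pim3 between the genotypes under pegIFN at 0.012, Pim3 in Jak2V617F pegIFN at 0.00060, and the interactions of Socs1 and Socs2 at 0.11 and 0.043. There were 238 genes higher and 415 lower under pegIFN, 701 and 298 under vehicle, and 1 member lower in Jak2V617F pegIFN.

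The replicate block, the mouse as a fixed term, raised the genes called from 661 and 703 to 2109 and 1801 under pegIFN, from 1346 and 672 to 2779 and 2165 under vehicle, and from 0 and 0 to 203 and 325 in the interaction. It called 2 members higher under pegIFN, 1 higher and 1 lower under vehicle and 1 higher in the interaction. The random block gave 2123 and 1786, 2857 and 2440, and 87 and 203, 1 member higher under vehicle, and an Osm interaction of 0.0042.

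Leaving out 1 library, or 1 mouse from the blocked fit, moved Cish from -0.073 to 0.21 between the genotypes under pegIFN and from -0.011 to 0.16 in Jak2V617F pegIFN, Id1 in Jak2V617F pegIFN from -0.22 to 0.11, and Osm from -0.027 to 0.13 between the genotypes under pegIFN and from -0.11 to 0.055 in the interaction. Under vehicle Pim1 ran from -0.14 to 0.040, Pim2 from -0.18 to 0.22, Socs3 from -0.31 to 0.020 and Pim3 from -0.056 to 0.041. Pim3 ran from -0.090 to 0.050 between the genotypes under pegIFN, from -0.075 to 0.066 in the interaction, from -0.090 to 0.026 in Jak2V617F and from -0.083 to 0.041 in wild-type pegIFN. The interactions of Socs1 and Socs2 ran from -0.092 to 0.087 and from -0.20 to 0.18. Without 1 library, genes called ran from 167 to 987 higher and 426 to 1064 lower under pegIFN, 621 to 1733 and 283 to 1052 under vehicle, and 0 to 8 and 0 to 28 in the interaction. Members called ran from 0 to 4 higher under pegIFN, 0 to 1 higher and 0 to 1 lower under vehicle, 0 to 3 higher in the interaction, and 1 to 2 higher and 0 to 3 lower in Jak2V617F pegIFN. The 4 under pegIFN and the 3 in the interaction came with the block and without pegIFN mouse 6. Depth limits Id1 most, at 24 to 201 counts per library.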
